A study of Mus musculus with 6 samples.

Results

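DNA replication machinery is described here as 48 genes that cover the steps of copying the genome, from the marking of origins to the supply of nucleotides. They were listed by gene symbol from their known roles, with earlier results of these data known, and all 48 were found among the 55487 gene entries of the count table and were among the 17315 genes expressed highly enough to test. Expression was measured by bulk poly(A) RNA-seq in 3 Ts1Cje and 3 wild-type libraries. The cells were derived from mouse ESCs (embryonic stem cells) and exposed for 4 days to FGF2, BMP-4, activin A and VEGF, a protocol for primitive macrophage progenitors. Ts1Cje mice, used to model Down syndrome, are animals in which a distal part of chromosome 16 is present in an extra copy, carried by a translocation to the end of chromosome 12. The wild-type cells came from ESCs of wild-type mice and were grown and induced in the same way. The study's stated question was why Ts1Cje embryos have fewer microglia, the resident macrophages of the brain. The labels name 3 lots per genotype and do not say whether a lot is a separate ESC line, a separate animal or a separate culture, so each p-value refers to the spread between lots, which may be partly technical.

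Genome copying begins when the origin recognition complex (ORC) binds origins and, with Cdc6 and Cdt1, loads the ring-shaped MCM2-7 helicase. In S phase, kinases recruit Cdc45 and the GINS complex to switch that helicase on, and DNA polymerases, the sliding clamp PCNA, its loader RFC and the enzymes of Okazaki fragment joining then build the new strands. Transcription of many of these genes rises at entry into S phase under E2F transcription factors, and embryonic stem cells, which spend much of their cycle in S phase, express the machinery at high levels.

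Promoter sequence is shown first because E2F-type sites are the feature by which this gene group is best known. RefSeq windows on GRCm38.p6, each running from 250 bases before to 50 bases after an annotated start, were matched by symbol for 39 of the 48 genes. The letters TTTCCCGC, TTTGGCGC, TTTCGCGC or TTTGCCGC, searched on both strands, were found in windows of 15 of these 39 genes (38.5%), against 704 of 27025 genes with a window (2.60%). CCAAT was found for 23 of 39 (59.0%), against 41.1% of all genes with a window, and the GC box letters GGGCGG for 30 (76.9%), against 38.2%. The cell-cycle homology letters TTTGAA or TTCGAA occurred for 9 (23.1%), against 21.7%. The genes with a window were not limited to those expressed highly enough to test, as the replication genes are. Shares among tested genes only were not computed. The windows of the 4 MCM subunits that hold E2F-type letters, and of Ccne1, one of the few replication genes higher in Ts1Cje cells, are printed 5′ to 3′ in the direction of the gene. Capitals mark every E2F-type and CCAAT match on either strand, and overlapping matches form a longer run of capitals. They lie at chr1:20820263-20820562 (Mcm3, minus strand), chr8:75109259-75109558 (Mcm5, plus strand), chr1:128359656-128359955 (Mcm6, minus strand), chr5:138171834-138172133 (Mcm7, minus strand) and chr7:38107441-38107740 (Ccne1, minus strand).
Mcm3: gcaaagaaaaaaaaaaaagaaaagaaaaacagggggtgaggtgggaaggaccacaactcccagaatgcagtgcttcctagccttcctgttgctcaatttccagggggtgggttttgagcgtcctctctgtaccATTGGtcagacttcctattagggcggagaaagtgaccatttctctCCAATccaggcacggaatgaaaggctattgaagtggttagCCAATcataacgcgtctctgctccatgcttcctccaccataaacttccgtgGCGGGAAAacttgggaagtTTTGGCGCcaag
Mcm5: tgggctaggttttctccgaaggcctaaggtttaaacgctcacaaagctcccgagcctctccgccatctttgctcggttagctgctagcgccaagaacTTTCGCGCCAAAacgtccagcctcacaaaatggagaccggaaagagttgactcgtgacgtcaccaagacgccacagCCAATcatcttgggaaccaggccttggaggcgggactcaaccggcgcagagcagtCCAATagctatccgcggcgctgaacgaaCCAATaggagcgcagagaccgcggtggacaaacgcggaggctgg
Mcm6: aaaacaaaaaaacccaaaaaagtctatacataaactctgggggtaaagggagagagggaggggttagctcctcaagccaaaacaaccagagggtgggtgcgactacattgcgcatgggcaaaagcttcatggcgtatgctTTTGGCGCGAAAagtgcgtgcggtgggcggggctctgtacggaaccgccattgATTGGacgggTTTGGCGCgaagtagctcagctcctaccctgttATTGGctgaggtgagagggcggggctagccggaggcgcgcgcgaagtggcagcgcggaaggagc
Mcm7: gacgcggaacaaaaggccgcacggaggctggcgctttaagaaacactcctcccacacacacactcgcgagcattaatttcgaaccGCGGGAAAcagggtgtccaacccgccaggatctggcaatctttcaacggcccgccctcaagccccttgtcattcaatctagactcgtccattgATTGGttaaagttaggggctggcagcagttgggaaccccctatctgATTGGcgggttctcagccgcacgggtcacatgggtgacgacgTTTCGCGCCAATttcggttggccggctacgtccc
Ccne1: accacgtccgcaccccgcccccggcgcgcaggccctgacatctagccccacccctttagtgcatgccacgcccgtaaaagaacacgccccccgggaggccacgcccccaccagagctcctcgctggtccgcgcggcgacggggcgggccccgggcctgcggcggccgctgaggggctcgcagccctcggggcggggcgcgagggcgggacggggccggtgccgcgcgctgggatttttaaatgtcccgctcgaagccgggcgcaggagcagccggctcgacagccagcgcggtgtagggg
The Mcm3 window held E2F-type letters starting 20 and 39 bases into the transcript and 3 CCAAT letters. In Mcm5 an overlapping E2F-type pair began 153 and 149 bases before the start, and in Mcm6 an overlapping pair 110 and 106 bases before it was joined by a further match at 47 bases. The Mcm7 window had matches 165 bases before and 17 bases after its start, the second overlapping a CCAAT; a second annotated start of Mcm7 had no E2F-type letters in its window. Neither E2F-type nor CCAAT letters occurred in the Ccne1 window, nor in that of E2f1, which fell furthest. Mcm2 had CCAAT but no E2F-type letters, and Mcm4 had no window in the RefSeq table. These matches are letters in a window, not measured binding sites. Only exact letters within the window were searched, so their absence does not show that a gene lacks such sites.

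Most replication genes were lower in Ts1Cje cells, and by modest amounts. Of the 48, 31 fell (64.6%) and 3 rose (6.25%) at an adjusted p below 0.05 in edgeR's quasi-likelihood test with Benjamini-Hochberg adjustment over all tested genes, while 14 passed in neither direction. Over all 17315 tested genes, 20.5% were called lower and 23.3% higher. Among the 8428 genes whose mean CPM (counts scaled to library size) lay within the range spanned by the replication genes, 17.8 to 419 CPM, the shares were 27% lower and 24.4% higher. Called in either direction were 43.8% of all tested genes and 51.4% in that range. The log2 fold change, Ts1Cje over wild-type, had a median of -0.28 over the 48 genes and of -0.0062 over all tested genes, and it was below 0 for 42 of 48 (87.5%) against 50.6% of all tested genes and 53.7% in that CPM range. It ran from -0.69 for E2f1 to 0.62 for Ccne1, so no replication gene changed 2-fold. That size was reached by 19.8% of all tested genes and by 10.9% in that CPM range. On the CPM scale, every Ts1Cje library lay below every wild-type library for 32 genes (66.7%), against 26.4% of all tested genes and 33% in that CPM range. Every Ts1Cje library lay above for 4 genes, against 28.8% of all tested genes and 29.1% in that range. The groups overlapped for the remaining 12 genes. In bulk RNA, a smaller share of cells in S phase and less transcript per replicating cell cannot be told apart.

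**Figure D1:**
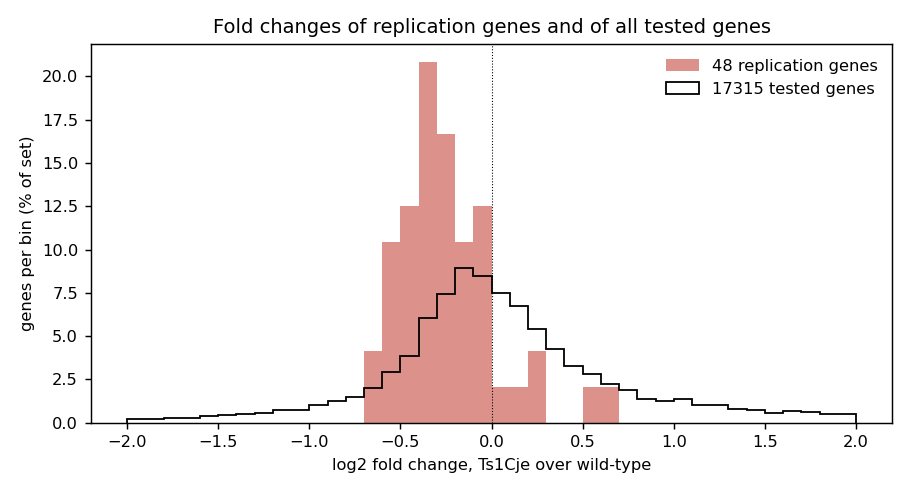
Distribution of the log2 fold change, Ts1Cje over wild-type (x axis), as the percentage of each set per bin (y axis), for the 48 replication genes (filled) and all 17315 tested genes (line). Bins run from -2 to 2, which takes in 92.4% of the tested genes; the replication genes are narrower and centred at -0.28, with 3 called genes to the right of 0.

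Each Ts1Cje library gave the same direction. The median deviation of the 48 genes from their wild-type mean was -0.23, -0.31 and -0.34 on the log2 CPM scale in Ts1Cje replicates 1, 2 and 3, and 0.032, -0.011 and -0.028 in wild-type replicates 1, 2 and 3. The 3 Ts1Cje values lay below all wild-type values. Summed over the 48 genes, expression was 4426, 4276 and 4055 TPM (abundance scaled by gene length and library size) in Ts1Cje cells, against 5365, 5031 and 4857 TPM in wild-type cells. The replicate 1 library was the highest of its group for 30 of the 48 genes in Ts1Cje cells and for 29 in wild-type cells.

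**Figure D2:**
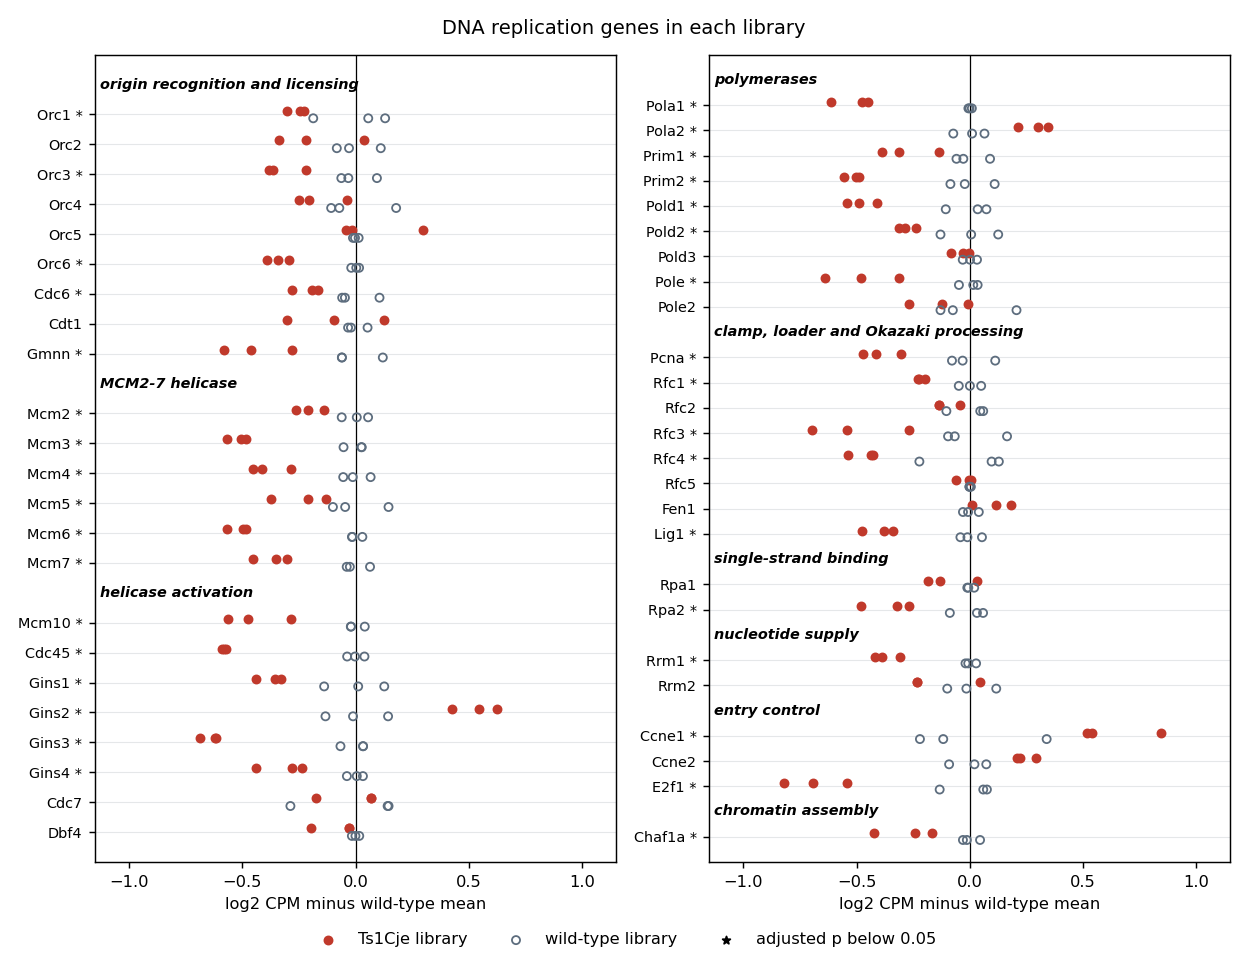
Log2 CPM minus the mean of the wild-type libraries (x axis) for each replication gene (y axis, by step), with filled points for the 3 Ts1Cje libraries and open points for the 3 wild-type libraries. An asterisk marks an edgeR adjusted p below 0.05; the Ts1Cje points lie to the left for most genes, and to the right for Gins2, Pola2, Ccne1 and Ccne2.

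At origin recognition and licensing, 5 of 9 genes fell and none rose, with a median log2 fold change of -0.21. For this and each later step, the shares over all tested genes were 20.5% lower and 23.3% higher. Orc6, the small ORC subunit, had 86.8, 92.0 and 84.8 TPM in the Ts1Cje libraries, against 114, 109.6 and 108 TPM in the wild-type libraries. Its groups did not overlap, and the fitted log2 fold change was -0.34 ± 0.066 SE (edgeR adjusted p = 0.00212). Orc3, a core subunit, had 40.4, 37.1 and 37.0 TPM in the Ts1Cje libraries, against 47.4, 50.7 and 44.3 TPM in the wild-type libraries, again without overlap (log2 fold change -0.32 ± 0.076, edgeR adjusted p = 0.00686). Orc1, an ATPase subunit, had 40.7, 41.1 and 38.9 TPM in the Ts1Cje libraries, against 53.6, 49.9 and 41.1 TPM in the wild-type libraries. In TPM the highest Ts1Cje value and the lowest wild-type value of Orc1 were level, and its call was marginal (log2 fold change -0.26 ± 0.096, edgeR adjusted p = 0.0484): without any single one of the 3 Ts1Cje libraries or of wild-type replicates 1 and 2, the adjusted p was 0.0838 to 0.142. Orc2, Orc4 and Orc5, the other core subunits measured, were not called, with log2 fold changes of -0.17, -0.17 and 0.089 (edgeR adjusted p = 0.222, 0.22 and 0.507). Orc2 was called lower only without Ts1Cje replicate 1, its highest Ts1Cje library (log2 fold change -0.28, edgeR adjusted p = 0.0391). Orc5 was also highest there, at 31.4 TPM, against 25.0 to 26.5 TPM in the wild-type libraries and 25.4 and 25.5 TPM in the other Ts1Cje libraries; without it the sign turned, to -0.026.

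Cdt1 and its inhibitor geminin, encoded by Gmnn, are set side by side because they act against each other. Gmnn, whose product blocks MCM loading after origins have fired, had 103, 85.7 and 91.7 TPM in the Ts1Cje libraries, against 140.0, 121 and 118 TPM in the wild-type libraries. All 3 Ts1Cje values were lower, and Gmnn fell by 26.3% (log2 fold change -0.44 ± 0.099, edgeR adjusted p = 0.00515). Cdt1, the loader that geminin binds, had 138, 122 and 104 TPM in the Ts1Cje libraries, against 135, 125 and 123 TPM in the wild-type libraries. The Ts1Cje libraries straddled the wild-type values and Cdt1 was not called (log2 fold change -0.081 ± 0.099, edgeR adjusted p = 0.541). The ratio of Cdt1 to Gmnn TPM was therefore 1.34, 1.42 and 1.13 in Ts1Cje libraries and 0.968, 1.03 and 1.04 in wild-type libraries. These ratios did not overlap, and the exact 2-sided permutation test gave p = 0.1, the smallest that 3 against 3 libraries allow, or 0.167 adjusted over 5 gene pairs. Cdc6, the ATPase that loads MCM with ORC, had 37.2, 35.2 and 36.8 TPM in the Ts1Cje libraries, against 41.1, 40.7 and 44.1 TPM in the wild-type libraries, without overlap. Its call was marginal (log2 fold change -0.21 ± 0.078, edgeR adjusted p = 0.0485) and was lost without any single one of the 3 Ts1Cje libraries or of wild-type replicates 2 and 3, at adjusted p-values of 0.0641 to 0.176. Over all 14 alternatives the Cdc6 call was lost in 10, some of them with every library kept.

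The MCM2-7 helicase was lower as a whole. All 6 subunits fell, with a median log2 fold change of -0.38, and none had overlapping groups. Summed over the ring, expression was 1268, 1252 and 1159 TPM in Ts1Cje cells, against 1696, 1547 and 1521 TPM in wild-type cells. Mcm3 had 202, 210.0 and 195 TPM in the Ts1Cje libraries, against 300.1, 279 and 287 TPM in the wild-type libraries. It fell by 30.3% (log2 fold change -0.52 ± 0.057, edgeR adjusted p = 7.64e-05). Mcm6 had 183, 185 and 174 TPM in the Ts1Cje libraries, against 268, 255 and 248 TPM in the wild-type libraries. Mcm6 fell by 30.1%, close to Mcm3 (log2 fold change -0.52 ± 0.055, edgeR adjusted p = 6.55e-05). Mcm4, which lies on chromosome 16 outside the triplicated part, had 220.1, 206 and 197 TPM in the Ts1Cje libraries, against 288, 268 and 253 TPM in the wild-type libraries (log2 fold change -0.38 ± 0.066, edgeR adjusted p = 0.00113). Mcm7 had 276, 273 and 251 TPM in the Ts1Cje libraries, against 366, 334 and 329 TPM in the wild-type libraries (log2 fold change -0.37 ± 0.062, edgeR adjusted p = 0.000964).

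The smallest falls in the ring were those of Mcm5 and Mcm2. Mcm5 had 245, 237 and 208 TPM in the Ts1Cje libraries, against 304, 252 and 255 TPM in the wild-type libraries. The highest Ts1Cje and the lowest wild-type value of Mcm5 lay close together (log2 fold change -0.24 ± 0.084, edgeR adjusted p = 0.0437), and the adjusted p was 0.0590 to 0.160 without Ts1Cje replicate 2 or 3 or wild-type replicate 1 or 3. Mcm2 had 143, 139.8 and 133 TPM in the Ts1Cje libraries, against 169, 159.9 and 149 TPM in the wild-type libraries (log2 fold change -0.21 ± 0.060, edgeR adjusted p = 0.0195); without Ts1Cje replicate 2 or 3 or wild-type replicate 2 its adjusted p was 0.0533 to 0.0807. In TPM, Mcm7 was the highest and Mcm2 the lowest subunit in all 6 libraries. The highest TPM exceeded the lowest 1.92 ± 0.031-fold in Ts1Cje cells and 2.16 ± 0.061-fold in wild-type cells (SD, n = 3 each). This order depends on the gene length used for scaling. In mean CPM, Mcm2 was not the lowest, at 299 in Ts1Cje and 344 in wild-type cells. Mcm3 (235 and 337), Mcm4 (231 and 301) and Mcm5 (285 and 335) were below it.

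**Figure D3:**
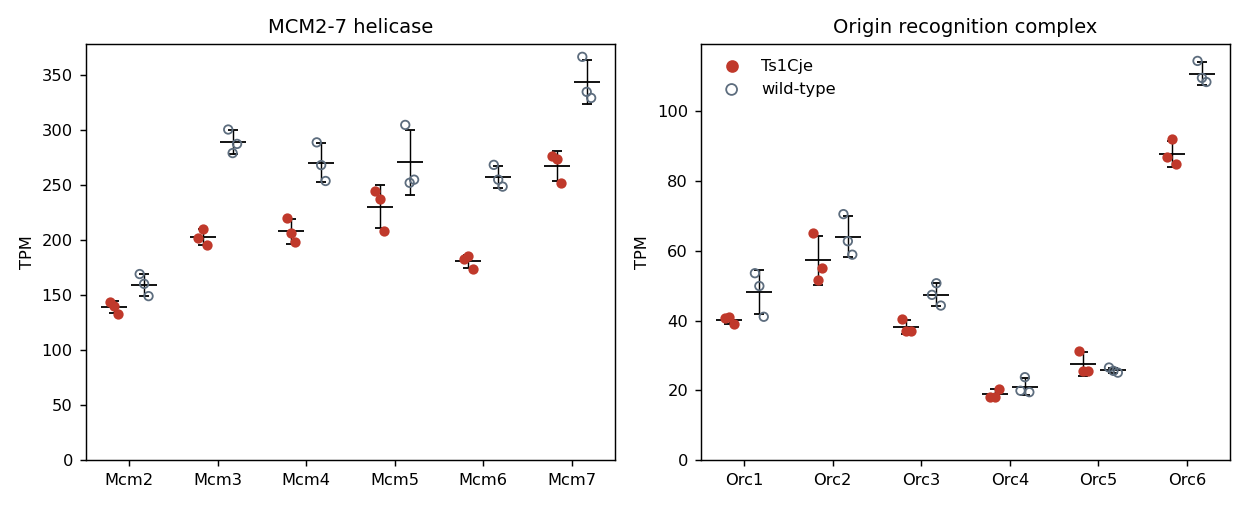
TPM (y axis, from 0) of the MCM2-7 subunits (left) and ORC subunits (right) in each Ts1Cje (filled) and wild-type (open) library, with bars at the mean and SD of 3 libraries. All Ts1Cje points lie below the wild-type points for the 6 MCM genes, while the groups overlap for Orc1, Orc2, Orc4 and Orc5. In TPM, Orc6 exceeds the other ORC subunits in every library.

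The factors that activate the loaded helicase moved in both directions, with 5 of 8 lower, 1 higher and a median log2 fold change of -0.35. Cdc45, the helicase cofactor that lies on chromosome 16 outside the triplicated part, had 30.4, 31.6 and 30.9 TPM in the Ts1Cje libraries, against 45.9, 47.4 and 44.9 TPM in the wild-type libraries. It fell by 33.1% with tight replicates (log2 fold change -0.58 ± 0.078, edgeR adjusted p = 0.000255). Mcm10, which acts at helicase activation, had 47.8, 43.0 and 39.9 TPM in the Ts1Cje libraries, against 61.7, 58.0 and 56.5 TPM in the wild-type libraries. Its groups were also apart (log2 fold change -0.44 ± 0.078, edgeR adjusted p = 0.00141). The kinase pair that triggers firing was not called: Cdc7 had a log2 fold change of -0.021 ± 0.13 (edgeR adjusted p = 0.91) and its activator Dbf4 one of -0.081 ± 0.066 (edgeR adjusted p = 0.354). The Cdc7 value turned to between 0.044 and 0.057 without Ts1Cje replicate 1, wild-type replicate 2 or wild-type replicate 3.

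The 4 GINS subunits form a complex of 1 copy each, and their transcripts split. Gins2 had 101, 109.5 and 93.9 TPM in the Ts1Cje libraries, against 78.8, 69.4 and 62.1 TPM in the wild-type libraries. Every Ts1Cje value exceeded every wild-type value, and Gins2 was 1.44-fold higher (log2 fold change 0.53 ± 0.086, edgeR adjusted p = 0.000783). Gins3 had 16.2, 17.5 and 17.2 TPM in the Ts1Cje libraries, against 27.5, 27.0 and 24.5 TPM in the wild-type libraries. It fell by 35.8%, the second-largest fall among the 48 genes (log2 fold change -0.64 ± 0.11, edgeR adjusted p = 0.000998). Gins1 had 45.9, 46.2 and 43.0 TPM in the Ts1Cje libraries, against 64.8, 52.9 and 57.2 TPM in the wild-type libraries (log2 fold change -0.38 ± 0.11, edgeR adjusted p = 0.0161), and its adjusted p was 0.0619 without Ts1Cje replicate 3. Gins4 had 93.7, 83.4 and 91.9 TPM in the Ts1Cje libraries, against 114, 109 and 111 TPM in the wild-type libraries (log2 fold change -0.32 ± 0.087, edgeR adjusted p = 0.0141), with 0.0529 without Ts1Cje replicate 2. In TPM, Gins2 was therefore the highest subunit in each Ts1Cje library and Gins4 in each wild-type library, while Gins3 was the lowest in all 6. In mean CPM, which is not scaled by length, Gins2 was above Gins4 in both groups. The values were 129 against 37.5 CPM in Ts1Cje and 89.2 against 46.7 CPM in wild-type cells. Summed GINS expression was 253 ± 6.33 TPM in Ts1Cje cells and 266 ± 16.7 TPM in wild-type cells (SD, n = 3 each).

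2 measurements stand beside the rise of Gins2. Of its 4097 exonic bases, 2758 are shared with Gse1 on the opposite strand, whose counts were 10991 in the Ts1Cje libraries and 5743 in the wild-type libraries. The kit kept strand, but the counting strand is not given in the sources used here, so reads of Gins2 and Gse1 cannot be told apart with certainty. Genes around Gins2 were also raised: the 52 tested genes that start within 2 Mb on chromosome 8 had a median log2 fold change of 0.56, with 29 called higher and 7 lower.

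Among the polymerase genes 6 of 9 fell, 1 rose and the median log2 fold change was -0.28. Polymerase alpha-primase, which lays down the primers, held both directions. Its catalytic subunit Pola1 had 18.6, 19.4 and 17.1 TPM in the Ts1Cje libraries, against 26.6, 26.02 and 25.6 TPM in the wild-type libraries. The groups were far apart and Pola1 fell by 29.9% (log2 fold change -0.51 ± 0.075, edgeR adjusted p = 0.000412). Its regulatory subunit Pola2 had 51.7, 58.2 and 55.6 TPM in the Ts1Cje libraries, against 46.3, 47.1 and 41.7 TPM in the wild-type libraries. Here the Ts1Cje libraries were all higher (log2 fold change 0.29 ± 0.067, edgeR adjusted p = 0.00622). The large primase subunit Prim2 had 15.97, 15.8 and 16.3 TPM in the Ts1Cje libraries, against 21.9, 24.6 and 21.9 TPM in the wild-type libraries. Prim2 fell by 30.2% (log2 fold change -0.52 ± 0.090, edgeR adjusted p = 0.00117). The catalytic primase subunit Prim1 fell less (log2 fold change -0.28 ± 0.090, edgeR adjusted p = 0.0308), and its adjusted p was 0.0947 to 0.119 without Ts1Cje replicate 2 or 3 or wild-type replicate 2.

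The catalytic subunits of the polymerases that extend the lagging and leading strands fell by similar amounts. Pold1, of polymerase delta, had 94.7, 102 and 92.1 TPM in the Ts1Cje libraries, against 127, 137 and 137 TPM in the wild-type libraries (log2 fold change -0.48 ± 0.069, edgeR adjusted p = 0.000357). Pole, of polymerase epsilon, had 37.4, 34.1 and 30.1 TPM in the Ts1Cje libraries, against 48.3, 48.03 and 44.2 TPM in the wild-type libraries (log2 fold change -0.47 ± 0.084, edgeR adjusted p = 0.00132). Neither gene had overlapping groups, and the ratio of Pole to Pold1 TPM was 0.352 ± 0.038 in Ts1Cje cells and 0.351 ± 0.030 in wild-type cells (SD, n = 3 each; exact permutation p = 1). The accessory subunit Pold2 fell (log2 fold change -0.28 ± 0.082, edgeR adjusted p = 0.0192), although its adjusted p was 0.0517 to 0.0819 without Ts1Cje replicate 2 or 3 or wild-type replicate 2 or 3. Pold3 and Pole2, also accessory subunits, were not called (log2 fold change -0.040 ± 0.060, edgeR adjusted p = 0.629, and -0.14 ± 0.13, edgeR adjusted p = 0.44).

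Of the 8 genes for the sliding clamp, its loader and Okazaki fragment processing, 5 fell, none rose and the median log2 fold change was -0.31. Pcna, the clamp that tethers polymerases to DNA, had the highest mean TPM of the 48 genes in both groups. Pcna had 335, 319 and 302 TPM in the Ts1Cje libraries, against 459.8, 408 and 385 TPM in the wild-type libraries. It fell by 24.0% without overlap (log2 fold change -0.40 ± 0.071, edgeR adjusted p = 0.00146). The processed pseudogene Pcna-ps2 drew 22 to 32 counts per Ts1Cje library and 27 to 37 per wild-type library. Lig1, the ligase that seals Okazaki fragments, had 158, 158 and 145 TPM in the Ts1Cje libraries, against 213, 196 and 195 TPM in the wild-type libraries. Lig1 fell by 24.1% (log2 fold change -0.40 ± 0.061, edgeR adjusted p = 0.000569). The flap endonuclease Fen1, which trims the same fragments, had 180.4, 193 and 169 TPM in the Ts1Cje libraries, against 176, 167 and 160.2 TPM in the wild-type libraries. Fen1 was not called (log2 fold change 0.10 ± 0.066, edgeR adjusted p = 0.235). It shares 1909 of 2422 exonic bases with the antisense gene Gm10143, which had 6854 counts in Ts1Cje and 6555 in wild-type libraries, close to the 7325 and 6976 counts of Fen1.

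Within the clamp loader, Rfc3 and Rfc4 fell most. Rfc3 had 31.8, 27.0 and 23.9 TPM in the Ts1Cje libraries, against 44.2, 36.9 and 35.2 TPM in the wild-type libraries. The wide spread in both groups left them apart (log2 fold change -0.50 ± 0.12, edgeR adjusted p = 0.00892). Rfc4, on chromosome 16 outside the triplicated part, had 71.5, 67.8 and 71.8 TPM in the Ts1Cje libraries, against 84.7, 106 and 101 TPM in the wild-type libraries (log2 fold change -0.47 ± 0.11, edgeR adjusted p = 0.00541). The large subunit Rfc1 fell by 14.1% (log2 fold change -0.22 ± 0.057, edgeR adjusted p = 0.0107), with an adjusted p of 0.0578 without wild-type replicate 2. Rfc2 and Rfc5 were not called (log2 fold change -0.11 ± 0.071, edgeR adjusted p = 0.262, and -0.021 ± 0.062, edgeR adjusted p = 0.811). Rfc5 shares 499 of 4669 exonic bases with Wsb2 on the opposite strand (2627 counts in Ts1Cje and 1254 in wild-type libraries). Rfc4 shares 194 of 1533 with Eif4a2, also on the opposite strand (19519 counts in Ts1Cje and 22562 in wild-type libraries). In TPM, Rfc1 was the highest and Rfc3 the lowest loader subunit in all 6 libraries.

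Single-strand binding and nucleotide supply each gave 1 gene that fell and 1 that was not called. The RPA subunit Rpa2, part of the complex that coats unwound DNA, had 70.9, 70.0 and 61.8 TPM in the Ts1Cje libraries, against 91.5, 88.0 and 78.9 TPM in the wild-type libraries (log2 fold change -0.36 ± 0.081, edgeR adjusted p = 0.00537). The large subunit Rpa1 overlapped between groups (log2 fold change -0.094 ± 0.069, edgeR adjusted p = 0.305). Ribonucleotide reductase makes deoxyribonucleotides, and its large subunit Rrm1 had 68.3, 64.8 and 65.2 TPM in the Ts1Cje libraries, against 88.7, 84.2 and 82.7 TPM in the wild-type libraries. Rrm1 fell by 22.7% (log2 fold change -0.37 ± 0.057, edgeR adjusted p = 0.000569). The small subunit Rrm2 had 275, 233 and 229 TPM in the Ts1Cje libraries, against 297, 266 and 244 TPM in the wild-type libraries. Its groups overlapped (log2 fold change -0.14 ± 0.089, edgeR adjusted p = 0.243), and it was called lower only without Ts1Cje replicate 1, the highest Ts1Cje library (-0.23, edgeR adjusted p = 0.0409). The ratio of Rrm2 to Rrm1 TPM was 3.71 ± 0.27 in Ts1Cje cells and 3.16 ± 0.20 in wild-type cells (SD, n = 3 each; exact permutation p = 0.1, adjusted 0.167). The size of this ratio depends on the length used for scaling, which is 11012 exonic bases for Rrm1. In mean CPM, Rrm2 and Rrm1 had 211 and 226 in Ts1Cje cells, and 232 and 292 in wild-type cells.

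The genes that control entry into S phase held both the largest fall and the largest rise. E2f1, a transcription factor that drives S-phase genes, had 28.4, 32.3 and 26.3 TPM in the Ts1Cje libraries, against 49.9, 48.3 and 41.2 TPM in the wild-type libraries. No value overlapped, and E2f1 fell by 37.9%, the largest fall among the 48 genes (log2 fold change -0.69 ± 0.10, edgeR adjusted p = 0.000521). Ccne1, cyclin E1, which activates Cdk2 at the start of S phase, had 117, 97.2 and 94.2 TPM in the Ts1Cje libraries, against 84.9, 56.5 and 59.1 TPM in the wild-type libraries. The lowest Ts1Cje library was above the highest wild-type library, and Ccne1 was 1.54-fold higher, the largest rise (log2 fold change 0.62 ± 0.16, edgeR adjusted p = 0.0127). Ccne2, cyclin E2, had 31.9, 34.7 and 32.6 TPM in the Ts1Cje libraries, against 29.9, 28.3 and 25.5 TPM in the wild-type libraries. The groups did not overlap, but the adjusted p missed the threshold (log2 fold change 0.24 ± 0.090, edgeR adjusted p = 0.0538), and it was 0.0440 without wild-type replicate 1. Ccne2 shares 609 of 3495 exonic bases with Ints8 on the opposite strand (5151 counts in Ts1Cje and 4110 in wild-type libraries). Its 26 tested neighbours within 2 Mb had a median log2 fold change of 0.28, with 9 called higher and 1 lower. Ccne1 exceeded Ccne2 in TPM 3.12 ± 0.48-fold in Ts1Cje cells and 2.39 ± 0.42-fold in wild-type cells (SD, n = 3 each; exact permutation p = 0.2, adjusted 0.25).

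Chaf1a and Chaf1b encode the large subunits of CAF-1, which deposits histones behind the fork. Chaf1a had 61.9, 60.3 and 52.3 TPM in the Ts1Cje libraries, against 73.7, 68.6 and 67.6 TPM in the wild-type libraries, and fell (log2 fold change -0.27 ± 0.074, edgeR adjusted p = 0.0132); it shares 4648 of 8854 exonic bases with Ubxn6 on the opposite strand (3805 counts in Ts1Cje and 4270 in wild-type libraries). Chaf1b, which lies in the triplicated part of chromosome 16 and is not among the 48, had 81.6, 72.0 and 76.1 TPM in the Ts1Cje libraries, against 56.5, 51.9 and 49.3 TPM in the wild-type libraries. It was 1.45-fold higher (log2 fold change 0.54 ± 0.076, edgeR adjusted p = 0.000351). The ratio of Chaf1b to Chaf1a TPM was accordingly 1.32, 1.19 and 1.46 in Ts1Cje libraries and 0.767, 0.758 and 0.729 in wild-type libraries. It changed most of the 5 pairs compared, by 0.81 on the log2 scale, with the same smallest possible exact permutation p = 0.1 (adjusted 0.167).

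Relative levels within the machinery are given per length, in TPM. The deposited TPM is scaled by all annotated exonic bases of a gene, such as 11012 for Rrm1. Order and ratios between genes therefore depend on the annotation, whereas the change of a ratio between genotypes does not. Mean TPM ranged from 16.01 for Prim2 to 318 for Pcna in Ts1Cje cells, and from 20.8 for Pole2 to 418 for Pcna in wild-type cells. The order of the 48 genes by mean TPM had a Spearman correlation of 0.965 between genotypes, over genes that share their libraries. The genes that moved furthest in this order were Ccne1, ranked 12 in Ts1Cje and 25 in wild-type cells, Gins2, ranked 13 in Ts1Cje and 23 in wild-type cells, and Pola2, ranked 28 in Ts1Cje and 38 in wild-type cells. Many neighbours in the order differ by less than their SD, such as Mcm4 (208 ± 11.4 TPM) and Mcm3 (202 ± 7.399 TPM) in Ts1Cje cells.

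Position on the chromosome was looked at next. Of the 48 genes, 41 had a fold change below the median of the tested genes within 2 Mb, and that median was above 0 for 26. Among the 31 called lower, which the call itself places low, that median was above 0 for 17. The same counts over all tested genes were not computed. Since 42 of the 48 had a log2 fold change below 0, the count of 41 is not a separate result. Mcm3 was lowest against its surroundings, whose median was 0.82 over only 6 tested genes, followed by Mcm5, whose 10 neighbours had a median of 0.61. E2f1 and Cdc45 fell beside neighbours with medians of 0.040 and 0.077. Rfc3 and Prim2 fell among neighbours that were lower as well, with medians of -0.49 and -0.42. Ccne1 rose among neighbours with a median of -0.31 (11 genes), whereas Pola2 rose among neighbours with a median of 0.15 (171 genes). Cdt1, not called, lies in a raised stretch of chromosome 8 (median 0.42 over 77 genes, 43 called higher).

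**Figure D4:**
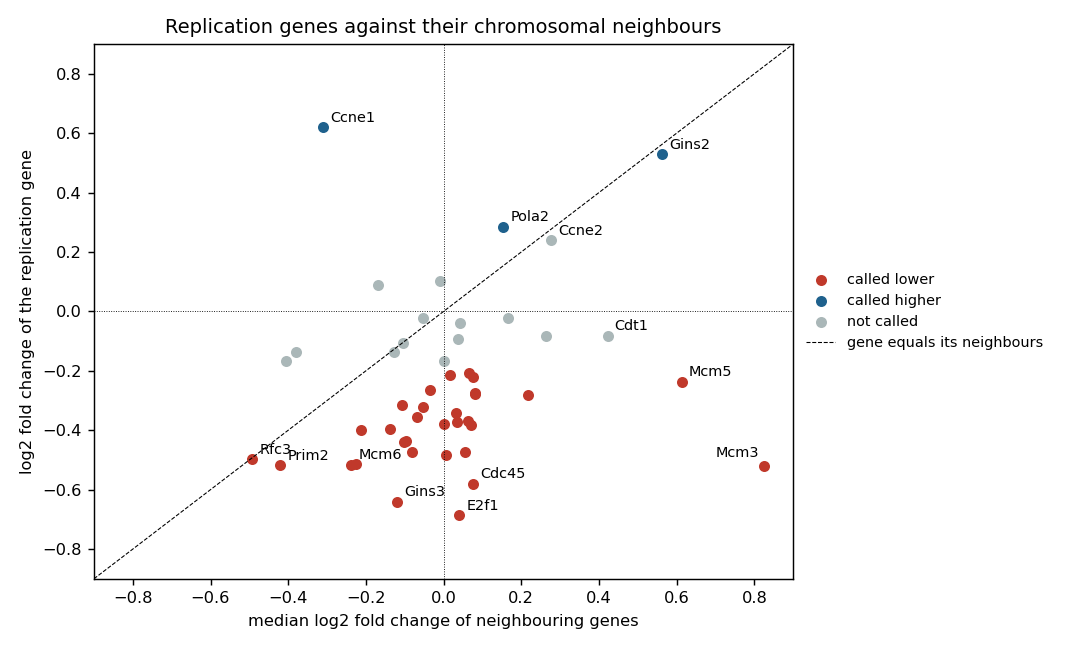
Log2 fold change of each replication gene (y axis) against the median log2 fold change of the other tested genes that start within 2 Mb (x axis), coloured by its own call; the dashed line marks equality. Of the 48 genes, 41 lie under the line, Gins2 close to it and Ccne1 far above it. The share of all tested genes under such a line was not computed.

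Read by promoter letters, 12 of the 15 genes with an E2F-type match were called lower, with a median log2 fold change of -0.37, and 13 of the 24 without one, with a median of -0.21. For CCAAT the split was 19 of 23 with a match (median -0.34) and 6 of 16 without (median -0.081). The GC box split was 19 of 30 (median -0.28) and 6 of 9 (median -0.24), and for the cell-cycle homology letters it was 6 of 9 (median -0.28) and 19 of 30 (median -0.27). Called lower were 20.5% of all tested genes and 27% of those in the CPM range of the replication genes. No test was made of these splits, and the share called lower among all genes with the same letters was not computed. Gins2 and Ccne2 had no window in the RefSeq table, and among the genes that rose, Pola2 and Ccne1 held neither E2F-type nor CCAAT letters.

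The partners of the machinery were read against the same background of 20.5% of tested genes lower and 23.3% higher. Of 75 other replication pathway genes, all tested, 39 fell and 6 rose, with a median log2 fold change of -0.24. Initiation factors and licensing control had 8 lower and 1 higher of 14, fork and polymerase partners 10 and 1 of 20, and chromatin and histone supply 7 and 1 of 12. The dNTP enzymes, with 3 lower and 2 higher of 9, were near the background. Among E2F factors, pocket proteins, D cyclins and CDK inhibitors, 11 of 20 fell and 1 rose. That 1 was Cdkn1a, the p21 inhibitor of cyclin-dependent kinases, with 70.3, 74.4 and 78.3 TPM in the Ts1Cje libraries, against 35.4, 27.0 and 31.5 TPM in the wild-type libraries (log2 fold change 1.24 ± 0.10, edgeR adjusted p = 1.17e-05). Another CDK inhibitor gene, Cdkn1c, fell (log2 fold change -1.25 ± 0.18, edgeR adjusted p = 0.000984). All 5 genes of the D cyclins and their kinases, which act before cyclin E, were called lower. Ccnd1, Cdk6 and Ccnd3 fell by 53.5%, 51.1% and 32.9% (edgeR adjusted p = 0.00334, 0.000139 and 0.000625). Ccnd2 and Cdk4, named after their values were seen, fell by 28.4% and 12.1% (edgeR adjusted p = 0.0245 and 0.0199), and Cdk4 was the most abundant of the 5, at 518 ± 18.3 TPM in Ts1Cje cells and 587 ± 30.9 TPM in wild-type cells (SD, n = 3 each).

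Donson, a helicase assembly factor in the triplicated part of chromosome 16, was 1.40-fold higher (log2 fold change 0.48 ± 0.074, edgeR adjusted p = 0.00058). Its 44 neighbours had a median log2 fold change of 0.65. The remaining rises were those of Rrm2b, Rnaseh2c and Samhd1 (log2 fold changes of 0.56, 0.33 and 0.28, edgeR adjusted p = 0.0363, 0.013 and 0.0115). Rrm2b is a p53-induced reductase subunit and Samhd1 a dNTP hydrolase. The helicase gene Rtel1 (log2 fold change -1.02 ± 0.10, edgeR adjusted p = 3.83e-05) and the deaminase gene Dctd (log2 fold change -0.66 ± 0.091, edgeR adjusted p = 0.0003) were among the largest falls. Rtel1 lies at the end of chromosome 2, where 35 of its 55 neighbours were called lower and their median was -0.75.

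**Figure D5:**
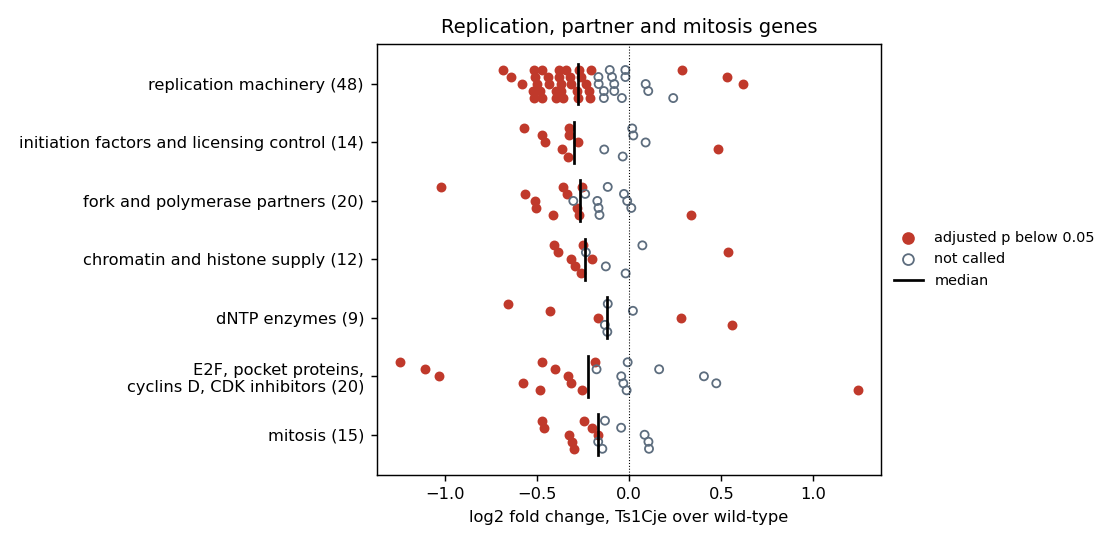
Log2 fold change, Ts1Cje over wild-type (x axis), of single genes in the replication machinery, 5 lists of partner genes and a list of mitosis genes (y axis, number of genes in brackets). Filled points passed an edgeR adjusted p below 0.05, and vertical bars mark medians, which lie between -0.30 and -0.12.

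Markers of cell type differed between the groups as well. Mitosis genes, markers of cycling cells, were lower for 8 of 15 and higher for 0, with a median log2 fold change of -0.17. As for the lists that follow, the shares over all tested genes were 20.5% lower and 23.3% higher. Their summed level was 2895 to 2967 CPM in Ts1Cje and 3300 to 3376 CPM in wild-type libraries. Markers of mesoderm and vessel were lower for 7 of 9 and higher for 0 (summed 444 to 599 CPM in Ts1Cje, against 1723 to 1750 CPM in wild-type libraries). Endoderm markers were higher for 8 of 8 (761 to 954 CPM, against 278 to 318 CPM), and pluripotency markers for 6 of 9 with 0 lower (423 to 662 CPM, against 55.5 to 184 CPM). Of 10 macrophage progenitor markers 5 were expressed highly enough to test, with Kit and Runx1 higher and Itga2b lower (summed 205 to 229 CPM, against 66.0 to 110 CPM). Csf1r, the receptor for a macrophage growth factor, was detected in both groups, at 18.1 ± 2.12 CPM in Ts1Cje and 14.3 ± 1.47 CPM in wild-type cells (SD, n = 3 each), and was not called, and Cd34 was under 1 CPM in both. Ptprc and Cx3cr1, which mark blood cells and macrophages, had 0 counts in every library, and Spi1, Itgam and Adgre1 had 11, 0 and 0 counts over the Ts1Cje libraries and 9, 5 and 1 over the wild-type libraries. The list was thus present in part and mixed in direction. Kit, Runx1 and Csf1r were expressed, and Itga2b was low, at 2.74 CPM in Ts1Cje and 9.31 CPM in wild-type cells. Runx1 lies between Donson and Chaf1b, in the triplicated part of chromosome 16. The markers of mature blood cells and macrophages were at or near 0. Feeder fibroblast markers summed to 9.70 to 11.2 CPM in Ts1Cje, against 21.5 to 55.3 CPM in wild-type libraries, with 2 of the 3 tested of 6 called lower and 0 higher. Col1a1 was uneven between wild-type lots, at 3.79, 30.2 and 40.8 CPM in replicates 1, 2 and 3. Its mean in Ts1Cje cells was 0.26 CPM (log2 fold change -6.55, edgeR adjusted p = 0.0112). Col1a2, the other fibroblast marker called lower, had a mean of 5.80 CPM in Ts1Cje and 11.2 CPM in wild-type cells. Thy1 was not called (log2 fold change -0.10), and Col3a1, Postn and Dcn were under 1 CPM in every library. What part these shifts have in the replication genes was not tested.

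The 6 libraries held 16577065 to 19010856 counts. Log2 expression over all tested genes correlated at 0.986 to 0.987 among Ts1Cje libraries, at 0.980 to 0.989 among wild-type libraries and at 0.912 to 0.943 between genotypes, and the first principal component carried 79.1% of the variance and separated the genotypes. Wild-type replicate 1 stood nearer the Ts1Cje libraries on it than the other wild-type libraries did. Without it, 29 replication genes were called lower and 4 higher.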

How the data were processed

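The authors deposited unnormalised counts for each Ensembl gene, and TPM values in a second table. HISAT2 2.1.0, featureCounts 1.6.3, Trimmomatic 0.38, FastQC 0.11.7 and the mm10 build are named per the submitters' processing notes. The settings, and which strand was counted, were not given in the sources used here. Counts set against deposited TPM gave the same ratio across libraries, within 0.001, for all 11997 genes with over 50 counts in every library. Gene coordinates of all 48 replication genes equal those of GENCODE vM21.

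Counts were analysed with edgeR 4.0.16 in R 4.3.3: filterByExpr (minimum count 10, minimum total 15), TMM scaling, robust quasi-likelihood fit over 17315 genes without covariates, and Benjamini-Hochberg adjustment over all of them with a threshold of 0.05. Every value after ± beside a log2 fold change is an SE taken as its size over the square root of F, and is approximate. Levels are deposited TPM; overlap between groups was judged on CPM with TMM scaling in counts of genes. Neighbours are tested genes that start within 2 Mb, replication genes left out. Gene-pair ratios were compared with exact 2-sided permutation tests. The fit was tested on simulated data in which 200 genes changed, each by more than any replication gene did here. Recovery of changes as small as those of the replication genes was therefore not tested. Alternatives were 2 other scalings, DESeq2 1.42.0, other filters, limma 3.58.1 on log2 TPM with pseudocounts of 1 and 0.1, a block on the lot number and leaving out each library.

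The 48 genes, the partner lists and the marker lists were chosen with earlier results of these data known. All 48 could be named; of partner genes, the 6 largest rises and 6 largest falls among those called, and those in the triplicated part of chromosome 16. Reads carry no molecular identifiers, and counts cover sampling of reads only. 16 of the 48 genes share exonic bases with a gene of at least 60 counts, 15 of them with one on the opposite strand. Not every such overlap is given beside its gene. Orc2, for example, shares 1150 of 3857 exonic bases with Nif3l1 on the opposite strand. All value columns matched a sample.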

Additional observations from a re-analysis of the deposited data

How the results depend on the processing

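Over 14 alternatives, 24 to 31 replication genes were called lower and 3 to 4 higher. Of those called, 22 of 31 lower and 3 of 3 higher kept their call under each of the 14, and no called gene changed sign. Cdc6, Orc1 and Mcm5 lost their calls most often, under 10, 9 and 7 of the 14. These losses included alternatives with every library kept, not only those that left a library out. The median log2 fold change of the 48 genes was -0.33 to -0.26 when 1 library was left out, with -0.33 without Ts1Cje replicate 1. Leaving out libraries turned the sign of values that were not called: Orc5 ranged from -0.026 (without Ts1Cje replicate 1) to 0.15, Cdc7 from -0.15 to 0.057 (without Ts1Cje replicate 1), Cdt1 from -0.20 to 0.017 (without Ts1Cje replicate 3), and the log2 difference in Pole/Pold1 from -0.084 to 0.063; the cause was not tested. Pairing by lot number was not established: deviations from group means correlated at 0.22, 0.059 and 0.20 for the same number, 1 of them under 0.1, although each library correlated best with its own number, a hint from the data. With the lot as a replicate block, 3965 of all genes were lower and 4361 higher, against 3547 and 4032 without it, and 31 replication genes were lower and 4 higher, the fourth being Ccne2 (edgeR adjusted p = 0.0472). Ccne2 also passed without wild-type replicate 1 (0.0440) and above a mean log2 CPM of 1 (0.0426). Scalings moved the median of all genes by less than 0.1. With 3 libraries per group, changes the size of those of Cdt1 or Rrm2 were within the spread.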
